A study of Homo sapiens with 4 samples.

Results

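The regions described here are the peaks on human chromosomes 1, 2, 7, 10, 16 and 22, chosen because these chromosomes are known for blocks of human satellite 2 (HSat2). Every row of the deposited lists on these assembled chromosomes was taken, except the far end of the long arm of chromosome 10. This gave 113 of the 406 peaks of replicate A and 111 of the 395 peaks of replicate B, or 27.8% and 28.1% of the lists. The choice used the chromosome only, not the score. On chromosome 10 the last peak kept was at 130382201 to 130382300 (score 4.11, B), and the first left out was at 133686801 to 133690300 (score 16.88, A). All samples are of A549, an established human lung adenocarcinoma line. The cells had taken up the N-terminally biotinylated peptide SVS-1 (15 µM in serum-free medium, 1 h at 37 °C), were replated and fixed the next day (1% paraformaldehyde, 15 min). DNA that came down with the peptide on streptavidin resin was sequenced from 2 capture libraries, A and B. Both carry the peptide, and the matching input libraries, taken from the same lysates, were not analysed here. The study asked where in the genome SVS-1 is found. No capture without peptide was used here, so the peaks are positions called after capture and have no measured background. A and B are labelled as biological replicates, and how their cultures were kept apart is not said.

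SVS-1 is a cationic peptide that enters cells and folds into a beta-hairpin at negatively charged surfaces. HSat2 is a tandem repeat built from diverged copies of the pentamer GGAAT. Its arrays lie beside the centromeres, are packed as constitutive heterochromatin, and can be demethylated and transcribed in cancer cells. The largest HSat2 blocks are in the long arms of chromosomes 1 and 16, next to the centromere. Much of these blocks stands as gaps in the assembly, so a peak can be placed only on the satellite sequence that the assembly holds. No genome sequence was used here, and whether a peak lies on HSat2, on another satellite or on unique sequence was not tested. The name of the satellite describes the chromosomes, not the peaks.

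The RefSeq promoter table (GRCh38.p14, 250 bases before to 50 after each annotated start) was the only source of bases under these peaks. Of its 11782 windows on the 6 chromosomes, 3 shared a base with a peak, all in replicate B on chromosome 2. They are shown because they are the sequence that can be read, and they belong to low-scoring peaks that were not called in A. The third window, of LOC124907726, overlaps that of RPS7 on the other strand and is not printed. RPS7 encodes a protein of the small ribosomal subunit, and its window is chr2:3575010-3575309 on the plus strand. PLEKHM3 encodes a pleckstrin homology domain protein, and its window is chr2:208025478-208025777 on the minus strand. Capitals mark the bases that lie inside the peak (109 of 300 at RPS7), read 5′ to 3′ on the gene's strand.
RPS7: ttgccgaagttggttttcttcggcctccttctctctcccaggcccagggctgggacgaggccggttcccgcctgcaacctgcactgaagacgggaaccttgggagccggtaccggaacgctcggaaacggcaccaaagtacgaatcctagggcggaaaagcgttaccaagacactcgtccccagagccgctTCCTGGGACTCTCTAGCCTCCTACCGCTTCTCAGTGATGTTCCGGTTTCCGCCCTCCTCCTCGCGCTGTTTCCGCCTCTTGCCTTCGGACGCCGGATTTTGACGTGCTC
PLEKHM3: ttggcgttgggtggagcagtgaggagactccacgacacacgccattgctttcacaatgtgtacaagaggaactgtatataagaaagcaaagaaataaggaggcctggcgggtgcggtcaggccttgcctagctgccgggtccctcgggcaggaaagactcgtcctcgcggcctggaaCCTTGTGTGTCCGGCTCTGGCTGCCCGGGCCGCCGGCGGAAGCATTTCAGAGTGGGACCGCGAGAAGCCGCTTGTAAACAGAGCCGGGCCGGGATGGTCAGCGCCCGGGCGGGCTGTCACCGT
The pentamer GGAAT, searched on both strands (GGAAT or ATTCC), did not occur in any of the 3 windows. At least 1 match was found in 36.4% of the 35116 promoter windows of the table, each of 300 bases. The whole windows had a GC content of 61% at RPS7 and 62% at PLEKHM3, and the median over all windows was 58.7%.

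Peaks were gathered at a few places on either side of the centromeres, and these places were called in both replicates. Joined over gaps of up to 50 kb, the peaks of both lists formed 40 clusters, of which 15 had peaks of both replicates. The other 25 were single peaks, 11 of A and 14 of B. Clusters of at least 10 peaks numbered 5, and held 77.9% of A (88 peaks, 95% Clopper-Pearson interval 69.1 to 85.1) and 73.0% of B (81 peaks, 63.7 to 81.0). These intervals and those below cover counting error over peaks only, and neighbouring peaks are not independent. The 5 lay on chromosome 1 (63 peaks of both lists), chromosome 10 (56), chromosome 16 (24 on the short-arm side and 14 on the long-arm side) and chromosome 2 (12). A further cluster of 7 peaks on chromosome 1 held one of the highest-scoring peaks. From the border between the chromosome arms, the clusters were 1.78 Mb (the 7 peaks) and 19.8 Mb away on chromosome 1 and 2.06 Mb away on chromosome 10. On chromosome 16 they were 2.19 Mb (short-arm side) and 9.58 Mb (long-arm side) away, and on chromosome 2 4.06 Mb. Chromosomes 22 and 7 had no cluster of 10. Clusters were not built for the other sets, so the shares in clusters have no background. Gaps of up to 50 kb between neighbours of the same list numbered 87 among 113 peaks of A and 82 among 111 of B here. On other autosomes they numbered 87 among 140 and 83 among 114, and on scaffolds 129 among 151 and 94 among 112. Close neighbours were thus not particular to these chromosomes.

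The sides of the centromere were not used alike. Of the peaks, 83 of A and 85 of B were on the long-arm side, against 30 and 26 on the short-arm side. Chromosome 1 had all of its 37 and 34 peaks on the long-arm side, and chromosome 10 had 29 of 30 and 31 of 31 there. Chromosome 2 was placed the other way, with 10 of its 12 and 10 of its 14 peaks on the short-arm side. Chromosome 16 had clusters on both sides, with 17 and 12 peaks on the short-arm side and 8 and 9 on the long-arm side. No chance test was made of these counts, since a single cluster decides most of them. The side was read from the border between the arms in the cytogenetic bands of hg38, and the nearest peak was 1.27 Mb from its border.

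**Figure D1:**
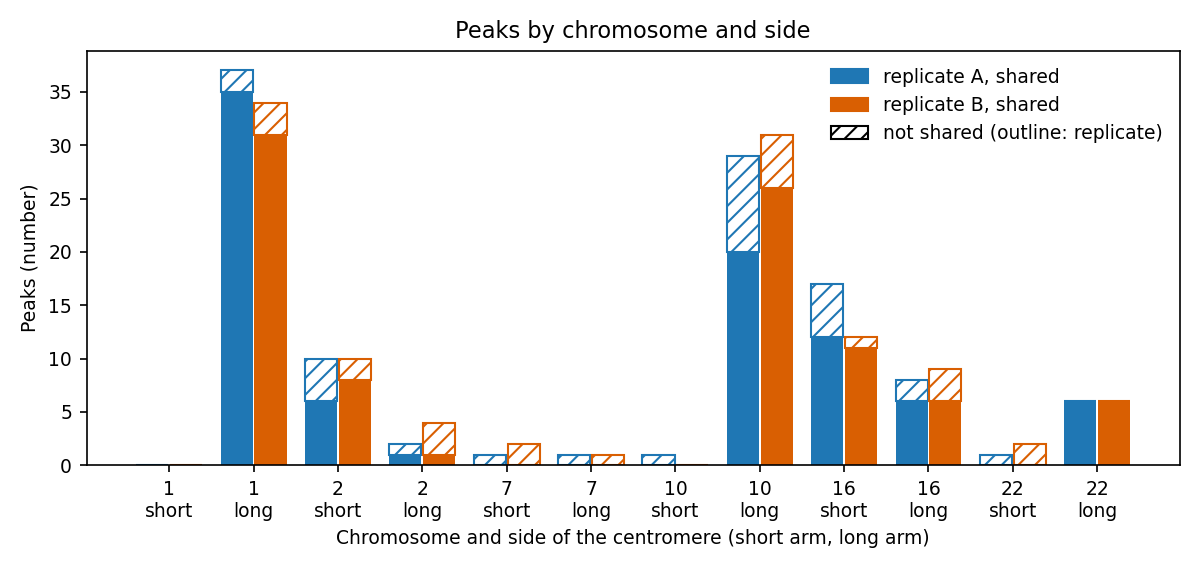
Number of peaks by chromosome and side of the centromere in replicate A (blue) and replicate B (orange). Filled bars are peaks that overlap a peak of the other replicate by at least 1 bp and hatched bars are the rest; chromosome 1 has peaks on the long-arm side only, and chromosome 7 has no shared peak.

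On chromosome 1 the peaks stood on both edges of a stretch of 18.0 Mb that held no peak in either list and no annotated gene. How much of this stretch is a gap in the assembly was not checked. A gap can hold neither a peak nor a gene, so nothing is read from its emptiness. The edge nearer to the centromere, at 125177201 to 125184100, had 3 peaks in A and 4 in B. Its main peak covered 125178501 to 125181000 in A (score 58.52, rank 17 of the list) and 125178301 to 125181100 in B (score 63.25, rank 18). The next peak, at 125181301 to 125183400, had the same start and end in both lists and scored 16.94 in A and 20.68 in B. This small group was densely covered: peaks of A filled 73.9% of its 6.90 kb and peaks of B 88.4%. All 5.1 kb called in A were also called in B.

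The far edge, at 143184801 to 143267400, was a long field of moderate peaks with 34 peaks in A and 29 in B over 82.6 kb. The peaks of A filled 26.1 kb of it and those of B 32.4 kb, and 23.7 kb were common to both. Its highest peak lay 29.3 kb from its start in A and 29.2 kb in B, and scored 27.55 and 22.49. Behind it in A came peaks at 143261901 (20.10), 143216701 (18.29) and 143192301 (17.29), and the matching peaks of B scored 16.82, 18.04 and 15.70. The same landmarks thus stood out in both lists, with 26 loci shared. Peaks of A had a median width of 550 bp and peaks of B one of 900 bp, and the longest stretch without a peak of either list was 5.3 kb. At the 29 shared loci of chromosome 1, the covered length was greater in B at 21, greater in A at 3 and equal at 5. The long non-coding RNA gene LOC101929814 began 32.1 kb beyond the field. The nearest protein-coding gene, the histone gene H3-7, began 635 kb beyond it.

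Chromosome 16 had the highest-scoring peak of all 6 chromosomes in both replicates. It lay on the long-arm side at 46385901 to 46392100 in A (score 59.74, rank 16) and at 46386001 to 46392500 in B (score 81.99, rank 12). With a width of 6200 bp in A and 6500 bp in B it was also the widest peak of the set. A second strong peak followed at 46397901 to 46401800 in A (37.27) and 46397801 to 46401700 in B (49.22). Between them a peak at 46394301 scored 13.59 in A, and its match at 46394201 scored 22.20 in B. This cluster of 20.5 kb had 7 peaks in each list, of which 6 were shared on either side. Peaks of A covered 61.5% of it and peaks of B 66.3%. It lay 67.5 kb before ANKRD26P1, a transcribed pseudogene of an ankyrin repeat gene, and 177 kb before SHCBP1, which encodes a protein that binds the adaptor SHC.

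The short-arm cluster of chromosome 16, at 34572101 to 34610700, was more open. It had 14 peaks in A and 10 in B, and peaks of both lists together covered 30.6% of its 38.6 kb. Its strongest stretch was called as separate peaks at 34581001 to 34582000 (11.27) and 34582501 to 34584100 (30.50) in A. In B it was 1 peak at 34581001 to 34584000 with a score of 37.70. The next, at 34585601, scored 21.67 in A and 26.26 in B, and that at 34594801 scored 18.07 and 19.42. All 10 peaks of B were shared, as were 11 of the 14 of A. A stretch of 14.2 kb without a peak separated the last peak pair, at 34610201 in A (7.11) and 34610401 in B (5.21), from the rest. The protein-coding gene nearest to the cluster was LOC124903767, 182 kb away. Between the clusters on either side of the centromere, 11.8 Mb apart, lay 2 low peaks of A and 2 of B. Of these 4, only a pair at 34725601 in A (6.65) and 34725701 in B (5.34) was shared.

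On chromosome 10 the peaks of both lists together formed an almost continuous run on the long-arm side, at 41857001 to 41915600. It had 28 peaks in each list, and together they covered 72.0% of its 58.6 kb, with no uncovered stretch longer than 1.7 kb. Taken alone, A covered 68.3% of it with gaps of up to 1900 bp. B alone was more open, with 47.4% covered and gaps of up to 4700 bp. The highest peak stood 2.2 kb from the start that faces the centromere, at 41859201 to 41861200 in A (38.60, rank 30) and 41859201 to 41860600 in B (30.67, rank 37). Next in A came peaks at 41879001 (25.85), 41880601 (19.59) and 41888201 (17.71). The highest peaks of B at these 3 loci scored 16.63, 19.27 and 13.89. The remaining peaks of the run scored at most 12.89 in A and 13.91 in B. The run was cut differently in the lists: the peaks of A filled 40.0 kb and those of B 27.8 kb, of which 25.6 kb were common. The common part was 64.0% of the length of A and 92.1% of that of B. At 15 of its 18 shared loci the covered length was greater in A, and at 3 it was greater in B. At 7 of these loci B had more separate peaks than A, as at 41880601 to 41885000, which was 1 peak in A and 2 in B. The run was thus wider in A while the field on chromosome 1 was wider in B. Over the whole of the lists B covered 506 kb and A 417.8 kb. Of the length of B, 93.7 kb lay on chromosomes X and Y, where A had no peak, so these totals do not show wider peaks in B. Of all 227 shared loci, 87 were covered more in B, 35 equally and the rest more in A. No test was made, because loci of a run are not independent and each letter stands for 1 library. Beyond the run came 155 kb without a peak or gene, and how much of this is a gap in the assembly was not checked. After it, 1 low peak of A (4.01) and 2 of B (4.02 and 4.15) stood at 42070701 to 42091900, none of them shared. ZNF33B, a zinc finger gene, was the nearest protein-coding gene, 659 kb beyond the run.

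**Figure D2:**
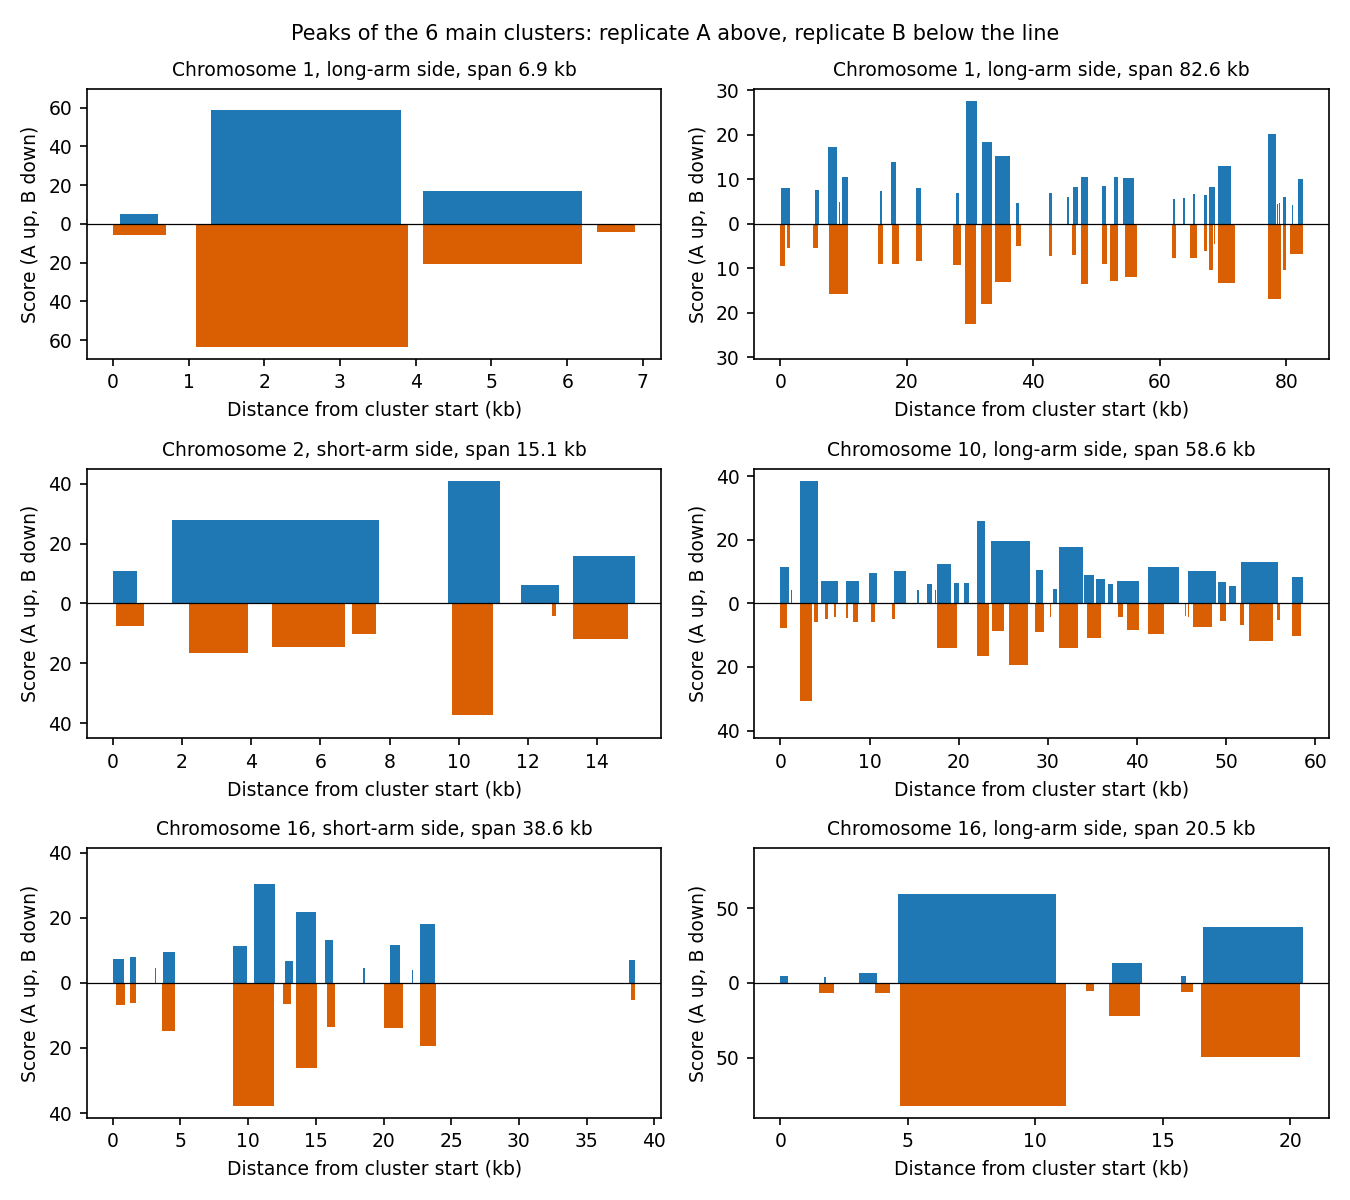
Peaks of the 6 main clusters, each drawn from its own start (x axis, distance in kb) to its true width, with the authors' score as height (y axis, own scale per panel); replicate A points up and replicate B points down. The highest peaks of the 2 replicates overlap in all 6 panels, and the chromosome 10 run is cut into narrower peaks in B.

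On chromosome 2 the peaks stood on the short-arm side, at 89826101 to 89841200, inside the span of IGK, the immunoglobulin kappa light chain locus. The cluster had 5 peaks in A and 7 in B, and all 12 were shared. The highest peak covered 89835801 to 89837300 in A (40.96, rank 29) and 89835901 to 89837100 in B (37.37, rank 27). A single peak of 6000 bp in A, at 89827801 to 89833800 (27.93), faced 3 peaks in B at 89828301 (16.71), 89830701 (14.64) and 89833001 (10.19). The last strong peak, at 89839401 in both lists, scored 15.79 in A and 11.82 in B. Peaks of A covered 11.1 kb and peaks of B 8.2 kb, and 8.0 kb were common. IGK is an annotation of the whole locus, 1378 kb long. Of the 98 entries on these chromosomes whose symbol begins with IGK, only this entry had a peak in the gene or within 5 kb, so no variable, joining or constant segment was reached. The nearest other gene was LOC105374862, a long non-coding RNA gene 4.61 kb beyond the cluster. A weaker group at 90386201 to 90398600 had 2 peaks in each list, with scores of at most 4.31 in A and 4.69 in B, and 1 of them was shared on either side.

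Chromosome 22 had no run of peaks but a set of narrow, separate loci on the long-arm side, and each of its 6 peaks there was shared in both lists. The highest, at 18730201 to 18731000, had the same start and end in both lists and scored 52.05 in A (rank 18) and 55.52 in B (rank 20). With a width of 800 bp it was the narrowest of the peaks above 50 on these chromosomes. Its midpoint lay 3.33 kb from FAM230E, a long non-coding RNA gene, upstream of the annotated start on the plus strand. Other loci also stood at genes of this family. A peak pair at 18895901 to 18896300 (10.51 in A, 12.56 in B) and another at 18892201 to 18892800 (6.76 and 11.69) lay inside FAM230F. Their midpoints were 0.664 and 4.26 kb after its annotated start, on the minus strand. The peak at 18205101 to 18205300 (8.17 and 9.24) lay inside FAM230D, with its midpoint 0.709 kb from the gene's end at 18205909. The peak at 18419101 to 18419700 (8.19 and 13.63) had its midpoint 1.98 kb outside FAM230A. The sixth locus, at 16352401 to 16353000 (7.53 and 8.34), had no gene within 5 kb.

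FAM230 is a family of long non-coding RNA genes in the low-copy repeats of this chromosome arm. Of its 9 members here, 4 (FAM230A, FAM230D, FAM230E and FAM230F) had a peak of both replicates in the gene or within 5 kb. Over all 18833 annotated genes of the 6 chromosomes, 10 had one, which is 0.0531%, and these 4 are among the 10. The family was put on the list with earlier results of these data known, so the contrast is a description and not a test. FAM230J, FAM230G, FAM230B, FAM230H and FAM230I had none in either replicate. The copies are similar in sequence, and reads that align to several of them can be placed at any one, so the 4 are not independent.

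Chromosome 7 went against the pattern of the other 5 chromosomes. It had 2 peaks in A and 3 in B, all of them single, and none was shared. The peaks of A scored 7.18 and 4.53, and those of B 5.16, 4.78 and 4.05. The peak of 7.18, at 56371301 to 56371900 on the short-arm side, was the highest peak of A that had no match in B. It held the end of a pseudogene, LOC100419985. The peak of B that scored 5.16 lay inside ADAP1, which encodes a GTPase-activating protein for ARF proteins.

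The single peaks were mostly weak and narrow. By construction a single peak cannot be shared, since a shared peak has at least 1 neighbour from the other list. The 11 of A scored 4.02 to 7.18 and the 14 of B scored 4.05 to 5.26. Their width had a median of 100 bp (A) and 200 bp (B), against 800 bp in clusters of at least 10 peaks in both lists. The widest, both on chromosome 7, covered 600 bp in A (score 7.18) and 700 bp in B (score 4.78). These widths equalled the medians over all peaks of the 6 chromosomes. Single peaks in protein-coding genes were in LRRTM4 (4.05, A), a synaptic adhesion protein gene. In B they were in RPS7 (5.19), INO80D (4.53), PLEKHM3 (4.25) and ADAP1. INO80D encodes a subunit of the INO80 chromatin remodelling complex, and its peak at 206085601 to 206085800 also lay in the antisense gene INO80D-AS1. Each of these 5 genes had its peak in 1 replicate only.

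How far the replicates agreed was counted over all of these peaks. An overlap of at least 1 bp was found for 86 of 113 peaks in A (76.1%, 67.2 to 83.6), and over the whole list of A the share was 66.3%. In B it was found for 89 of 111 (80.2%, 71.5 to 87.1), and over that whole list the share was 65.6%. When the overlap had to span at least 50% of each peak, the shares were 52.2% in A and 53.2% in B, against 41.1% and 42.3% over the whole lists. Replicate B also had 57 peaks on chromosomes X and Y, none of them shared, and A had 0 there, which lowers the share over the list of B. Other autosomes gave 60.0% in A (51.4 to 68.2, n = 140) and 72.8% in B (63.7 to 80.7, n = 114). Scaffolds gave 64.9% in A (n = 151) and 76.8% in B (n = 112). The difference between these sets was not tested, because peaks of a cluster are not independent units.

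By chromosome the share differed. On chromosome 1 it was 94.6% in A and 91.2% in B, on chromosome 16 72.0% and 81.0%, on chromosome 10 66.7% and 83.9%, and on chromosome 2 58.3% and 64.3%. On chromosome 22 it was 6 of 7 in A and 6 of 8 in B, and on chromosome 7 it was 0 in both. Without chromosome 1 the share of A was 67.1% and that of B 75.3%.

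Sharing went with the score in both lists. Of peaks scoring 4 to 5, 11 of 31 in A (35.5%, 19.2 to 54.6) and 11 of 28 in B (39.3%, 21.5 to 59.4) were shared. Of peaks scoring 5 to 10 it was 35 of 42 (83.3%, 68.6 to 93.0) and 39 of 44 (88.6%, 75.4 to 96.2). All 40 peaks of A and all 39 peaks of B that scored at least 10 were shared. The highest score without a match was 7.18 in A and 5.35 in B. Width went with the score (Spearman's rho 0.851 over 113 peaks of A and 0.860 over 111 of B). A wider peak meets an overlap of 1 bp more easily, so score and width cannot be told apart here. Of peaks wider than 1000 bp, all 33 of A and all 36 of B were shared, and of peaks of a single 100 bp window 5 of 19 and 4 of 9 were. On other autosomes, peaks scoring 4 to 5 were shared in 13.8% of cases in A (n = 58) and 26.7% in B (n = 30). On scaffolds the shares of that class were 34.7% (n = 49) and 51.1% (n = 45). At 5 to 10 the shares were 86.1% and 74.3% on other autosomes, and 68.2% and 92.9% on scaffolds. At 10 to 20 they were 94.7% and 100% on other autosomes, and 100% and 87.5% on scaffolds. All peaks of both sets from 20 were shared, so the sharing of high scores was not particular to these chromosomes.

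**Figure D3:**
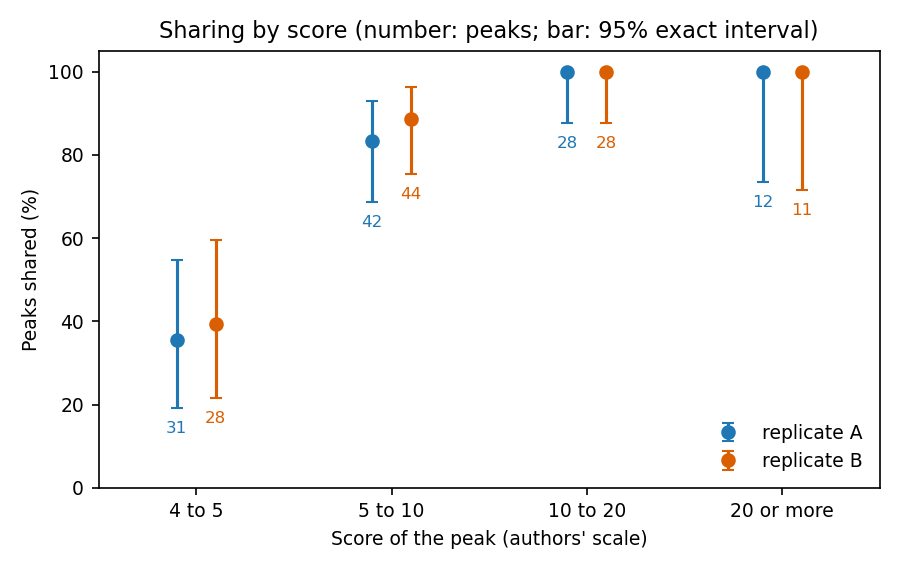
Share of peaks that overlap a peak of the other replicate (y axis, percent) by class of the authors' score (x axis), for replicate A (blue) and B (orange); bars are 95% Clopper-Pearson intervals and numbers are peaks. The share is 35.5% and 39.3% in the lowest class and 100% from a score of 10.

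The unmatched peaks were also counted by place. In A, 14 of the 27 unmatched peaks stood in clusters of at least 10 peaks, and 11 were within 1 kb of a peak of B. In B, 4 of the 22 unmatched peaks stood in such clusters, and 5 were within 1 kb of a peak of A. Counted by length, 85.9 kb were called in both lists. This was 77.5% of the 110.8 kb of A, 79.8% of the 107.6 kb of B, and 64.8% of the 132.5 kb called in either.

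**Figure D4:**
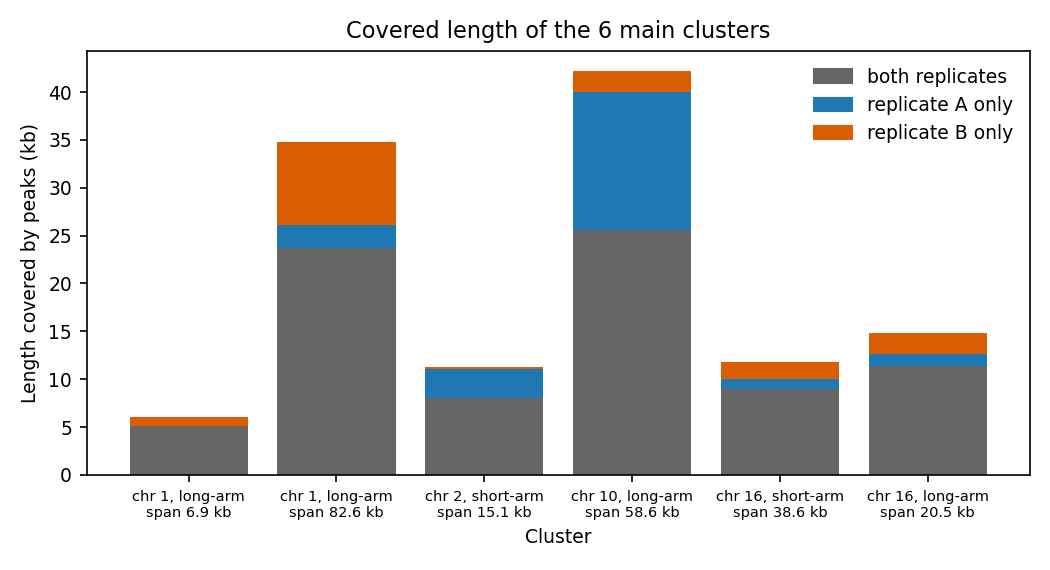
Length covered by peaks in the 6 main clusters (y axis, kb), split into length called in both replicates (grey), in A only (blue) and in B only (orange). The chromosome 10 run has 14.4 kb in A only and 2.2 kb in B only, and the long cluster of chromosome 1 has 2.4 kb and 8.7 kb.

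Matching peaks had close borders on chromosomes 1, 16 and 22, and less so on chromosomes 2 and 10. Peaks matched 1 to 1 at 60 of the 77 shared loci. Their starts differed by a median of 100 bp and their ends by a median of 100 bp, which is 1 step of the grid on which all peaks lie. Start and end were both the same in 7 pairs, and both within 1 step in 27. The largest difference was 900 bp for a start and 1700 bp for an end. Of the other 17 loci, 7 had more peaks in A and 10 had more in B. Among the 1 to 1 pairs, both borders were within 1 step in 11 of 23 on chromosome 1. It was 9 of 16 on chromosome 16 and 5 of 6 on chromosome 22. It was 1 of 6 on chromosome 2 and 1 of 9 on chromosome 10, where ends differed by a median of 300 bp.

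Peaks within a cluster were spaced by short, irregular gaps. The median gap between neighbours was 900 bp in A (quartiles 500 and 1450, n = 87 gaps) and 800 bp in B (500 and 1900, n = 82). Gaps were shortest in A on chromosome 10, with a median of 600 bp, against 850 bp in B. No gap was shorter than 200 bp in either list, on these chromosomes or on other autosomes and scaffolds. On other autosomes the median gaps were 1000 bp (A) and 800 bp (B), and on scaffolds 1500 and 1350 bp.

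The order of the loci by score was much alike in both lists. Over the 77 shared loci Spearman's rho of the authors' scores was 0.849 and Pearson's r of the log2 scores 0.908, given as a description, since neighbouring loci of a cluster come from the same libraries and are not independent. Within single clusters rho was 0.784 over 26 loci of chromosome 1, 0.808 over 18 of chromosome 10 and 0.891 over 10 of the short-arm side of chromosome 16. On other autosomes it was 0.887 over 70 loci. By their highest peak, the clusters of chromosome 16 (long-arm side), chromosome 1 (near edge) and chromosome 22 (FAM230E) came in this order in both lists. The chromosome 10 run and the far field of chromosome 1 followed further down in both. Chromosome 2 (40.96) stood above the short-arm side of chromosome 16 (30.50) in A, and both were nearly level in B (37.37 and 37.70).

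**Figure D5:**
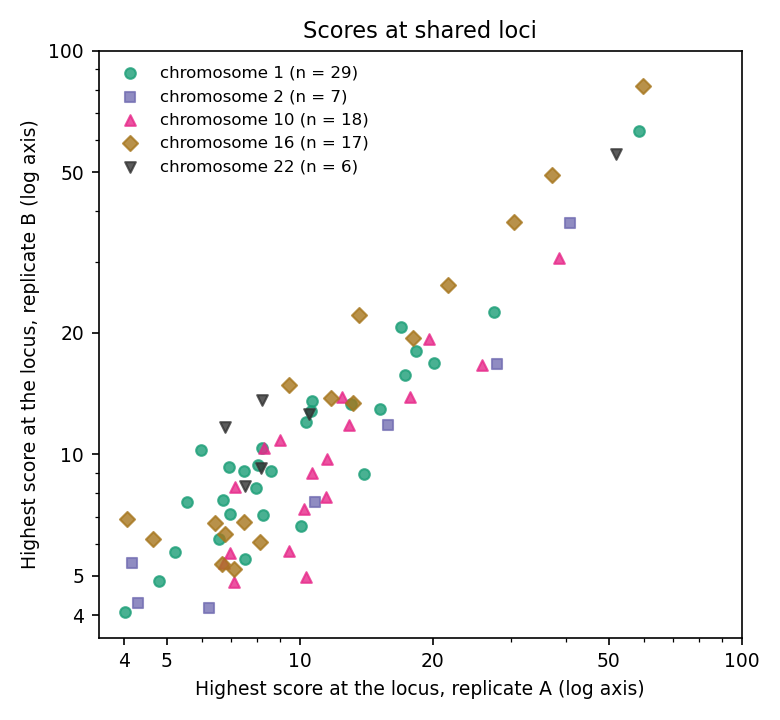
Highest score at each of the 77 shared loci in replicate A (x axis) and replicate B (y axis), both on log axes in the authors' unstated scale, by chromosome. Spearman's rho is 0.849; the highest points are the chromosome 16 locus (59.74 and 81.99) and the chromosome 1 locus (58.52 and 63.25).

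Peaks of these chromosomes reached the upper ranks of the lists but not the first 10. Of the top 50 peaks by score, 11 in A and 7 in B lay here, against 27 and 24 on other autosomes and 12 and 16 on scaffolds. These chromosomes held 27.8% of list A and 28.1% of list B, so both counts were below their share of the lists. Other autosomes held 34.5% and 28.9%, and scaffolds 37.2% and 28.4%. The median score was 7.47 in A and 7.32 in B, against 6.47 and 8.76 on other autosomes. Median widths were 600 bp (A) and 700 bp (B), against 600 and 900 bp.

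Genes were seldom near. A midpoint over 1 kb away from every annotated gene was found for 100 of the 113 peaks of A (88.5%, 81.1 to 93.7) and 93 of the 111 of B (83.8%, 75.6 to 90.1). On other autosomes the shares were 65.0% (56.5 to 72.9) and 72.8% (63.7 to 80.7), and the difference was not tested. All peaks on chromosomes 1 and 10 lay outside genes. On chromosome 2, 7 of 12 peaks of A and 12 of 14 of B had their midpoint in a gene. On chromosome 22 it was 3 of 7 and 3 of 8, on chromosome 16 2 of 25 and 2 of 21, and on chromosome 7 1 of 2 and 1 of 3. In all, 17 genes held the midpoint of a peak, 5 of them in both replicates: IGK, FAM230D, FAM230F, RANBP2 and SH3RF3. RANBP2 (a nucleoporin gene) and SH3RF3 (a ubiquitin ligase gene) overlap and share 1 weak locus at 109199301 to 109199700 (4.16 in A, 5.38 in B). Among the 18833 genes, 20 had a peak of A in the gene or within 5 kb (0.106%) and 20 a peak of B (0.106%). No microRNA gene was among them.

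The other 14 gene lists had no gene with a peak of both replicates. At the share of 0.0531% over all genes, lists of these sizes have few or no such genes in any case, so nothing is read from these counts. The lists were the ankyrin repeat families (12 genes), POTE (8), TPTE (3), NBPF (21), NOTCH2 and NOTCH2NL (6), SRGAP2 (5), TP53TG3 (8), GGT (9) and the immunoglobulin lambda segments (89). The others were zinc finger genes (161), histone genes (39), LINC genes (724), DUX (28) and FRG and BAGE (9). Of these genes, 14 of DUX and 1 of FRG and BAGE lie in the end of chromosome 10 that was left out, and could have no peak here. Within these lists only the pseudogene FRG2JP on chromosome 16 (4.02, A) and LINC01237 on chromosome 2 (4.75, B) had a peak in 1 replicate.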

How the data were processed

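The data are 2 peak lists, 1 per capture library, on hg38. Per the submitters' processing notes, bcl2fastq 2.17, Trimmomatic 0.36 and Bowtie2 2.2.5 were used; which caller made the peaks, whether it used the input and how multi-mapping reads were handled is not given in the sources used here. In satellites and duplicated genes such reads can move or split peaks. The deposited lists give a score per peak, the authors' own value on an unstated scale. It was used within a list and, between the lists, for correlations over shared loci. Score classes were cut at the same values in both lists, and whether the scale is the same in both is not known. Read depth is unknown. Positions, deposited as starts and ends on a 100 bp grid, are given counted from 1 with both ends included.

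Peaks were called shared at an overlap of at least 1 bp, joined into loci and into clusters (gaps of up to 50 kb), and classed by midpoint against RefSeq genes of GRCh38.p14. The border between chromosome arms was taken from cytogenetic bands to 0.1 Mb, as background knowledge. Computations used Python 3.11.15, pandas 2.3.3 and scipy 1.17.1. They returned the built-in values on simulated lists (20 of 20 runs), which checks the code only. The simulated sites stood far apart with at most 1 peak of each list, so dense runs and split peaks were not covered. Intervals are 95% Clopper-Pearson. With 2 libraries no test over samples was possible, and none over peaks was made. Genes were named at the 3 highest shared loci of each chromosome and side, and where they hold a midpoint (up to 30). The members, the 16 gene lists and the tests were chosen with earlier results of these data known.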

Additional observations from a re-analysis of the deposited data

How the results depend on the processing

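No paired analysis was possible because the inputs were not analysed here and no result comes from a fitted model. Of 70 alternatives over 17 results, 51 stayed within the interval (Clopper-Pearson, or Fisher's z for the correlation), within 1.5 times of the value or, for covered length, within 1 SD between the common shares of A and B. Requiring an overlap of 50% in each peak, 52.2% of A and 53.2% of B were shared, against 41.1% and 42.3% over the whole lists. Within 1 kb, 85.8% of A had a match; at a score of at least 10, 100% of both; in the top 50% of each list by score, 94.8% of B. Without chromosome 1, 67.1% of A were shared. Without single peaks (chosen after seeing the data), which removes unmatched peaks only, the shares were 84.3% and 91.8%. The length called in both was 62.5% of that called in either without chromosome 1, 67.6% without chromosome 10 and 62.5% without chromosome 16. With clusters built from 1 replicate alone, 67.3% of A and 60.4% of B lay in clusters of at least 10 peaks, since 1 list has fewer peaks per cluster. With 1 locus per cluster, rho was 0.969 over 14 loci. At a score of at least 10 median widths were 1500 bp (A) and 1600 bp (B). With protein-coding genes only, 98.2% of A and 95.5% of B lay outside genes. Leaving out 1 replicate leaves 1 list, so the shared values could not be had. The motif content of the peaks was not run, since no genome sequence was used.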
